A study of Mus musculus with 4 samples.

Results

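Mitochondrial ribosomal proteins are the proteins of the ribosome inside mitochondria. They were taken from a ribosome profiling table of mouse embryonic fibroblasts by gene symbol, as every listed gene whose name starts with Mrpl or Mrps followed by a digit. This gave 46 of the 4878 genes in the table, 29 named for the large subunit (Mrpl) and 17 for the small subunit (Mrps). No measured value entered this rule, though earlier results of these data were known when the members were chosen. The 46 genes lie on 17 chromosomes, and all matched a RefSeq gene table of assembly GRCm38.p6, the assembly also called mm10.

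Ribosome profiling sequences the RNA fragments that ribosomes protect from RNase I, called footprints. The cells, at passages 5 to 8, were transfected by Lipofectamine RNAiMAX with the negative control siRNA in 2 libraries (controls) and with an siRNA against the initiation factor eIF1A in 2 libraries (knockdown). eIF1A binds the small cytosolic ribosomal subunit and takes part in scanning for the start codon. The mouse genes for eIF1A were not analysed here, so the knockdown was not checked in these libraries. The labels do not say whether replicates came from separate cultures, so the p-values cover the spread between these libraries alone, and that spread may be technical. Replicate numbers are names and give no order.

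Mammalian mitochondria keep a small genome of their own, and the mitochondrial ribosome translates the few respiratory chain proteins encoded there. Its RNAs come from that genome, but all of its proteins are encoded in the nucleus, translated by cytosolic ribosomes and imported. A part of these proteins has relatives in bacterial ribosomes, while others are found only in mitochondria. Several genes of mitochondrial proteins carry, right after the transcription start, a translation initiator of short 5′ untranslated regions (TISU), in which the start codon sits in an AAGATGGCG core, so the ribosome starts after a very short leader.

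That core is shown first, because it was found in the members and because the leader is 1 of the 2 regions measured. RefSeq promoter entries, which run from 250 bases before to 50 bases after an annotated start, matched 41 of the 46 members with 47 entries. On the gene's strand after the start, AAGATGGCG was in 5 of the 41 members with an entry. That is 12.2% of these members, against 98 (2.70%) of the 3633 genes that were tested on coding reads and have an entry. Over all 32851 entries, which include genes that code for no protein, the share was 0.636%. The variant AACATGGCG was in no member's entry after the start and in 0.468% of those tested genes. The windows below are 30 bases long, written 5′ to 3′ on the gene's strand (GRCm38.p6), with the core in capitals. Distances count from the start used in the promoter entry; where the gene's outermost annotated start differs, the distance from it is given too.

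Mrpl35 (chr6:71823743-71823772, minus strand, 23 transcribed bases before the core): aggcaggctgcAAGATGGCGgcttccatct
Mrpl37 (chr4:107066822-107066851, minus strand, 26 bases before): ctgcacgggcaAAGATGGCGgcgtccaggt
Mrps18a (chr17:46111004-46111033, plus strand, 11 bases before): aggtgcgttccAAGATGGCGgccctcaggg
Mrps24 (chr11:5707652-5707681, minus strand, 36 bases before): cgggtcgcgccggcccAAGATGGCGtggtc
Mrps27 (chr13:99344789-99344818, plus strand, 14 bases before, 33 from the outermost start): tggtgcgctccAAGATGGCGgctcccatgg

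The shorter run ATGGCGGC, which overlaps the core, was after the start in 8 members, the windows of Mrpl35, Mrpl37, Mrps18a and Mrps27 above and the windows of 4 more, shown here with that run in capitals. It was in 19.5% of the members with an entry and in 3.69% of those tested genes.

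Mrpl22 (chr11:58171675-58171704, plus strand, 22 bases before the run, 1643 from the outermost start): tagggctcagcATGGCGGCcgcactactgc
Mrpl27 (chr11:94653791-94653820, plus strand, 11 bases before, 32 from the outermost start): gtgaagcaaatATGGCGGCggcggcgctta
Mrpl9 (chr3:94443340-94443369, plus strand, 15 bases before, 197 from the outermost start): gctccgctgtcATGGCGGCctctgtggctc
Mrps5 (chr2:127587417-127587446, plus strand, 2 bases before): ccggctccagcATGGCGGCggccgtacgcg

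Other promoter letters were searched in the same entries on both strands. GCATGCGC, the core of the site of NRF1, a transcription factor of many mitochondrial protein genes, was in 12.2% of the members with an entry and 6.72% of those tested genes. ACCGGAAG, a core bound by ETS factors such as GABP, was in 12.2% and 6.47%. No member's entry began transcription with a C and 4 more pyrimidines, the start of mRNAs with a terminal oligopyrimidine tract, as 2.56% of those tested genes did. A match in these letters is a description of sequence and not a mapped site.

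The values are the authors' normalized read numbers, given separately for the coding sequence and for the 5′ untranslated region (5′ UTR, or leader). They are whole reads times a constant for each library, which was 0.717 and 0.864 in the controls and 1.02 and 1.596 in knockdown replicates 1 and 2. All listed genes together held 617663 and 547916 reads in the controls and 458191 and 280649 in the knockdown libraries, so knockdown replicate 2 was the shallowest. The lowest value in the table is 1 read, and 1 read may stand for none. Of 15 fibroblast markers 4 were listed (Vim, Fn1, Sparc, S100a4), and they summed to 4437 and 5972 normalized coding reads in the controls and 4266 and 3189 in the knockdown libraries. Notch3 and Cspg4, the listed 2 of 3 pericyte markers, summed to 337 and 548 in the controls and 106 and 123 in the knockdown libraries; the markers' part in the results below was not tested. The listed epithelial marker Dsp (1 of 7) went from 109 and 146 to 82.4 and 71.8, and Map2, the listed marker of neurons and glia (1 of 5), from 65.9 and 55.3 to 15.3 and 6.38. None of the endothelial, leukocyte, muscle or adipocyte markers looked for was listed.

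Coding footprints on mitochondrial ribosomal proteins were more frequent in both knockdown libraries. The 46 genes together held 1159 and 825 coding reads in the controls, and 2034 and 905 in the knockdown libraries. As a share of all coding reads this was 0.212% (95% Wilson interval 0.200 to 0.225) and 0.174% (0.163 to 0.187) in the controls. In the knockdown libraries it was 0.555% (0.531 to 0.579) and 0.477% (0.447 to 0.509). These intervals cover counting error only, as reads without molecular identifiers are not independent molecules. Both knockdown shares lay above both control shares, with means of 0.516% ± 0.0547 and 0.193% ± 0.0267 (SD, n = 2), a ratio of 2.67. On the authors' normalized scale, the members' summed coding reads gave a ratio of 2.28 between the group means. For 2 libraries a group, the smallest p of an exact permutation test (two-sided) is 0.333, so single sums are given without a test. A footprint level depends on both mRNA amount and translation, which cannot be told apart here, and fewer cells of a kind and less RNA per cell cannot be told apart in such lysates.

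Gene by gene, 45 of the 46 members passed the filter, which asked for 10 or more normalized coding reads as the mean of the 4 libraries. Of these, 23 rose and none fell at an adjusted p under 0.05 (limma on log2 of the value plus 1, adjusted over 4619 genes). In the table as a whole, 10.6% of tested genes rose and 18.7% fell, and with TMM scaling 17% rose and 16.9% fell. Of the 23, 5 (Mrpl11, Mrpl37, Mrpl18, Mrps26, Mrps21) had a control mean under 10 and passed the filter only through their knockdown values. Without a filter 23 of all 46 members rose and 0 fell, where 10.3% of all 4878 genes rose and 18.2% fell. At an unadjusted p under 0.05, 30 members were higher and 0 lower by limma. Counts at an unadjusted p, here and below, stand without a share over all genes and are a description only. All 23 rose by more than 2-fold on this scale, as 9.5% of all tested genes did, with log2 changes from 1.12 to 2.43. Among the 45 tested members, both knockdown values exceeded both control values in 36 (80.0%), against 26% of all tested genes, and were below both in 0, against 40.1%. Without a filter the median log2 change was 1.24 over all 46 members and -0.16 over all genes.

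The calls needed both controls. Without control replicate 1 limma called 2 members higher (Mrpl33 and Mrpl35), while 2.1% of all tested genes rose and 4.26% fell. Without control replicate 2 it called 0 members, with 16 higher and 0 lower when p was unadjusted, while 0.0649% of all tested genes rose and 0.173% fell. Among the 23, log2 changes stayed positive in each case and kept 85.9% to 142% and 57.9% to 114% of their size. Without knockdown replicate 1 limma called 21 members higher, where 9.22% of tested genes rose and 25.3% fell, and the 23 kept 45.2% to 123% of their change. Without knockdown replicate 2 it called 33, where 19% rose and 18.5% fell, and the 23 kept 77.4% to 155%. On recovered whole reads, edgeR called all of the 23 and 12 of the other 22 higher and 0 lower, where 19.6% of tested genes rose and 17.8% fell. DESeq2 called 21 members higher and 0 lower, where 10.5% rose and 10.8% fell, and Mrpl10 (adjusted p = 0.0833) and Mrps27 (0.0532) were among those it did not call.

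**Figure D1:**
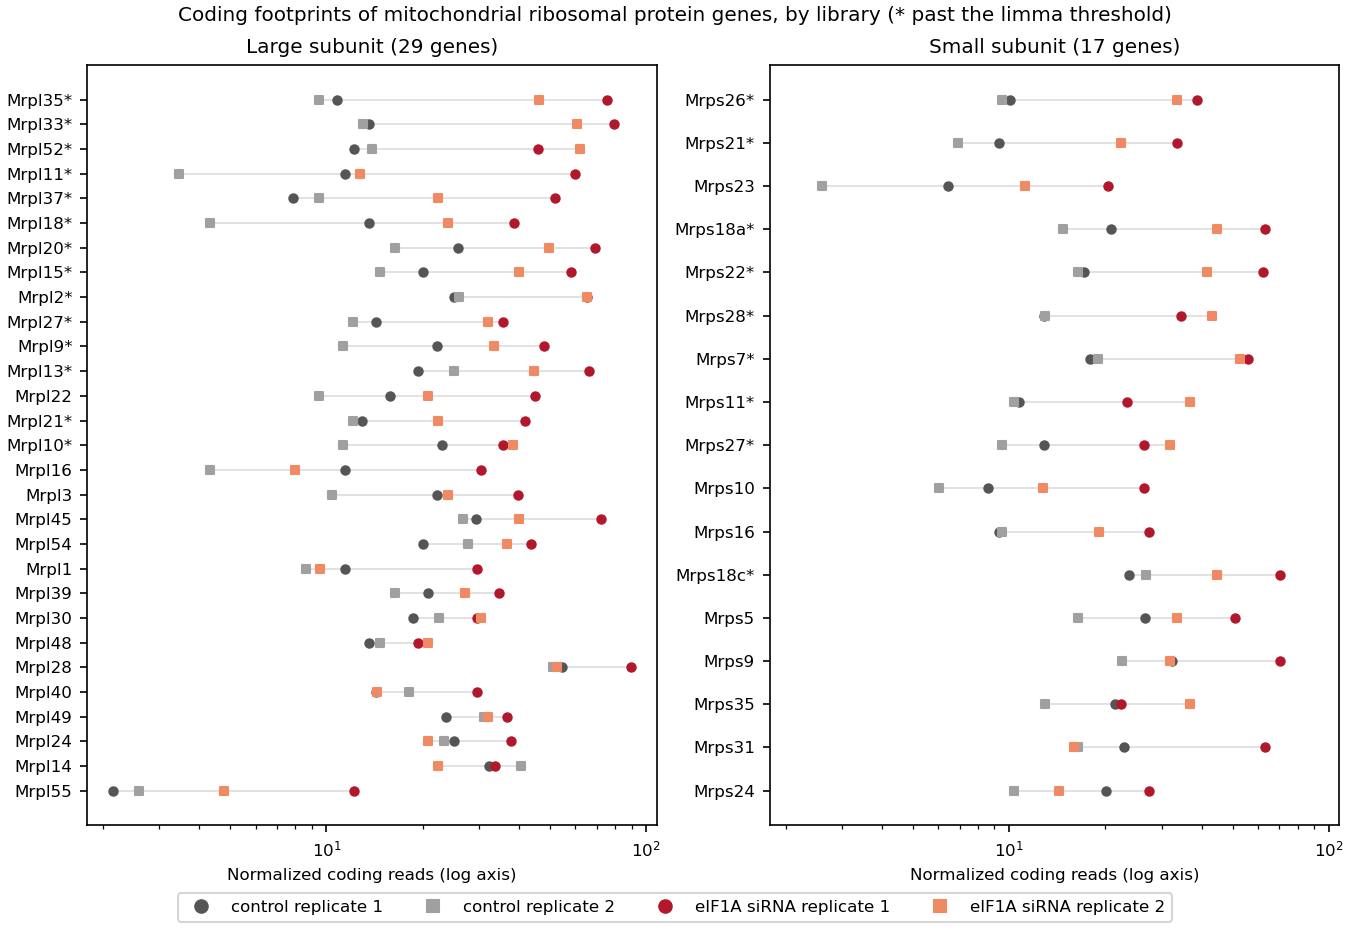
Normalized coding reads of the 29 large subunit and 17 small subunit genes in each library, on a log axis, ordered by log2 change; grey symbols are controls, red and orange symbols are eIF1A siRNA libraries, circles replicate 1 and squares replicate 2, and an asterisk marks genes past the limma threshold. In 37 of the 46 genes both coloured symbols lie to the right of both grey ones, and Mrpl14 is the one tested member with a negative log2 change.

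Genes of both subunits were among those that rose. Of 28 tested large subunit genes 14 rose and 14 did not pass, with a median log2 change of 1.19. Of 17 small subunit genes 9 rose and 8 did not pass, with a median of 1.31. The 17 small subunit genes took 34.1% (95% Wilson interval 31.4 to 36.9) and 31.3% (28.2 to 34.5) of the members' coding reads in the controls. In the knockdown libraries they took 34.6% (32.6 to 36.7) and 36.5% (33.4 to 39.7). Both knockdown shares lay above both control shares, while the intervals of all 4 libraries, which cover counting error only, overlapped one another. The symbol is not always the place: the proteins of Mrps18a and Mrps30 sit in the large subunit in mitochondrial ribosome structures, and with Mrps18a moved there (Mrps30 was not analysed here) the medians were 1.23 for 29 genes and 1.28 for 16. The difference between the subunits was described and not tested, since genes are not replicates.

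**Figure D2:**
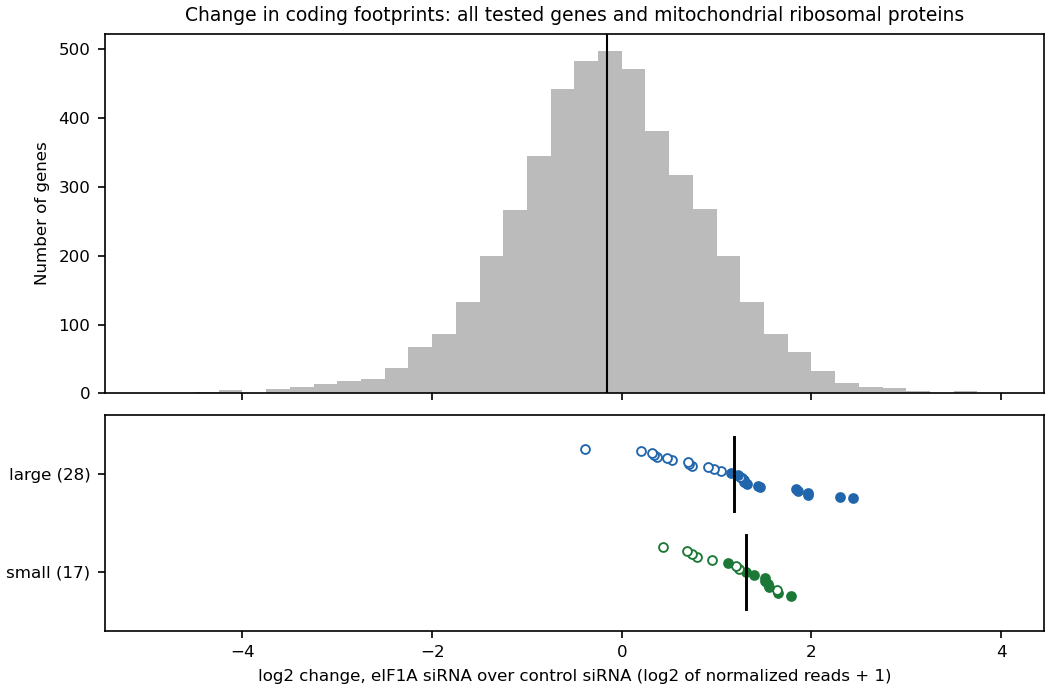
Top, histogram of log2 changes of coding reads (knockdown over control) for 4619 tested genes, with a line at the median of -0.16. Bottom, the 28 large and 17 small subunit genes on the same axis, filled where past the limma threshold, with lines at the medians of 1.19 and 1.31; the vertical spread within a row has no meaning.

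Mrpl35 and Mrpl33, relatives of small bacterial large-subunit proteins, changed most. Mrpl35 had 10.7 and 9.51 normalized coding reads in the controls and 75.3 and 46.3 in the knockdown libraries. The groups were far apart, and the log2 change was 2.43 ± 0.39 (SE, limma adjusted p = 0.000464). Mrpl33 (chromosome 5, 31613951 to 31622644) had 13.6 and 13.0 in the controls and 79.3 and 60.7 in the knockdown libraries. Its lowest knockdown value was above its highest control by the widest margin of normalized reads among the members, and the change was 2.30 ± 0.35 on the log2 scale (SE, limma adjusted p = 0.000347). The annotated span of Mrpl33 lies wholly within that of Gm38424, so their reads could not be separated by position. Mrpl20, a relative of a bacterial assembly protein, had 25.8 and 16.4 in the controls and 69.2 and 49.5 in the knockdown libraries. Mrpl15 went from 20.1 and 14.7 to 58.0 and 39.9, and Mrpl13 from 19.3 and 25.1 to 66.1 and 44.7. None of these 3 overlapped between groups, and their log2 changes were 1.46, 1.43 and 1.27 (limma adjusted p = 0.00758, 0.00963 and 0.0149).

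Among proteins near the peptidyl transferase centre, where peptide bonds are made, Mrpl2 was the most even. It had 25.1 and 25.9 normalized coding reads in the controls and 65.1 and 65.4 in the knockdown libraries. Replicates of a group differed by under 1 normalized read, and the log2 change was 1.32 ± 0.33 (SE, limma adjusted p = 0.00714). Mrpl27, whose bacterial relative reaches into the same centre, rose from 14.3 and 12.1 to 35.6 and 31.9 (log2 1.29, limma adjusted p = 0.0225). Mrpl3 had 22.2 and 10.4 in the controls and 39.7 and 23.9 in the knockdown libraries, which did not overlap but did not pass (log2 0.97, limma adjusted p = 0.112).

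Mrpl11 and Mrpl10 belong to the stalk, which recruits the translation GTPases. Mrpl11, of the stalk base, had 11.5 and 3.46 normalized coding reads in the controls and 60.0 and 12.8 in the knockdown libraries. The lower knockdown library was barely above the higher control, and the log2 change of 1.96 (limma adjusted p = 0.0355) ran from 0.89 without knockdown replicate 1 to 3.03 without knockdown replicate 2. Mrpl10, the stalk anchor, went from 22.9 and 11.2 to 35.6 and 38.3 (log2 1.15, limma adjusted p = 0.0453), a call kept in 9 of 14 alternatives and lost, among others, with DESeq2. Mrpl18, a protein of the central protuberance, had 13.6 and 4.32 in the controls and 38.6 and 23.9 in the knockdown libraries (log2 1.83, limma adjusted p = 0.0166). Mrpl9 (1.28) and Mrpl21 (1.23) were the remaining bacterial-type large subunit genes that rose.

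Large subunit proteins found only in mitochondria gave 2 rises among 8 tested genes, with a median log2 change of 0.72. Mrpl52 had 12.2 and 13.8 normalized coding reads in the controls and 45.8 and 62.2 in the knockdown libraries, and changed by 1.96 ± 0.37 on the log2 scale (SE, limma adjusted p = 0.00143). Mrpl37, the member with the core shown above on chromosome 4, had 7.88 and 9.51 in the controls and 51.9 and 22.3 in the knockdown libraries (log2 1.86, limma adjusted p = 0.00876). Neither gene overlapped between groups. The other 6 did not pass: Mrpl45, which lies at the tunnel exit facing the inner membrane, had a log2 change of 0.91, and Mrpl54, Mrpl39, Mrpl48, Mrpl40 and Mrpl49 had 0.74, 0.70, 0.47, 0.34 and 0.32. The 20 tested bacterial-type large subunit genes gave 12 rises and a median of 1.26. In the small subunit the same division gave 6 rises among 11 bacterial-type genes (median 1.24), with Mrps18a counted there, and 3 among 6 mitochondria-specific genes (median 1.43).

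The lowest changes were all in the large subunit. Mrpl14, at the interface to the small subunit, had 32.2 and 40.6 normalized coding reads in the controls and 33.6 and 22.3 in the knockdown libraries. The groups overlapped, and its log2 change of -0.39 did not pass (limma adjusted p = 0.444). Mrpl24, near the exit of the peptide tunnel, had 25.1 and 23.3 against 37.6 and 20.8, with a log2 change of 0.20 (limma adjusted p = 0.733). Mrpl49 had 23.6 and 31.1 against 36.6 and 31.9, a log2 change of 0.32 (limma adjusted p = 0.521). Mrpl28, with 54.5 and 51.0 in the controls, had 89.5 in knockdown replicate 1 and 52.7 in replicate 2, inside the range of the controls.

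In the small subunit Mrps7 and Mrps26 had the smallest adjusted p. Mrps7, a protein of the subunit's head (chromosome 11, 115604140 to 115608036), had 17.9 and 19.0 normalized coding reads in the controls and 55.9 and 52.7 in the knockdown libraries. Both groups were tight, and the log2 change was 1.51 ± 0.34 (SE, limma adjusted p = 0.00471). Mrps26, found only in mitochondria, had 10.0 and 9.51 in the controls and 38.6 and 33.5 in the knockdown libraries, and changed by 1.78 ± 0.41 on the log2 scale (SE, limma adjusted p = 0.00501). Mrps22, another mitochondria-specific protein, whose gene is mutated in a mitochondrial disease, had 17.2 and 16.4 against 62.0 and 41.5 (log2 1.54, limma adjusted p = 0.00588). Mrps28 had 12.9 and 13.0 against 34.6 and 43.1 (log2 1.51, limma adjusted p = 0.00911). No values of these 4 genes overlapped between the groups.

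The 3 Mrps18 genes of mammals encode relatives of 1 bacterial protein, and 2 of them were listed. Mrps18a had 20.8 and 14.7 normalized coding reads in the controls and 63.1 and 44.7 in the knockdown libraries (log2 1.55, limma adjusted p = 0.00583). Mrps18c had 23.6 and 26.8 against 70.2 and 44.7 (log2 1.12, limma adjusted p = 0.0252). Both rose without overlap. Mrps21 had 9.31 and 6.91 against 33.6 and 22.3 (log2 1.65, limma adjusted p = 0.0156). Mrps11, of the platform, had 10.7 and 10.4 against 23.4 and 36.7 (log2 1.39, limma adjusted p = 0.0254). Mrps27, a pentatricopeptide repeat protein, had 12.9 and 9.51 against 26.4 and 31.9 (log2 1.31, limma adjusted p = 0.0297). Mrps11, Mrps27, Mrps28 and Mrps35 were the small subunit genes with a higher value in knockdown replicate 2 than in replicate 1.

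The 8 small subunit genes that did not pass had log2 changes from 0.43 to 1.64. Mrps23, at 1.64, had 6.45 and 2.59 normalized coding reads in the controls and 20.3 and 11.2 in the knockdown libraries (limma adjusted p = 0.0737). Mrps24, at 0.43, had 20.1 and 10.4 against 27.5 and 14.4, and its groups overlapped. Mrps31 was split, with 63.1 in knockdown replicate 1 and 15.96 in replicate 2 against 22.9 and 16.4 in the controls. Mrps10, Mrps16, Mrps5, Mrps9 and Mrps35 lay at 1.24, 1.202, 0.95, 0.79 and 0.74. In the large subunit Mrpl22 (1.25), Mrpl16 (1.05), Mrpl1 (0.71) and Mrpl30 (0.53) did not pass either. Over all 46 genes knockdown replicate 1 was above replicate 2 in 37, with a median ratio of 1.498, and it was above it in 70.4% of all tested genes. Mrpl55, the 1 member not tested on coding reads, had 2.15 and 2.59 in the controls and 12.2 and 4.79 in the knockdown libraries, which is 3, 3, 12 and 3 reads.

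Among the 5 members with the AAGATGGCG core, Mrpl35, Mrpl37, Mrps18a and Mrps27 rose, and Mrps24 did not pass and had the lowest change in the small subunit. Among all 98 tested genes with that core after the start, 21 rose (21.4%) and 8 fell (8.16%), with a median log2 change of 0.06. Among all 134 tested genes with the run ATGGCGGC after the start, 25 rose (18.7%) and 15 fell (11.2%). Of the 4 members with only that run, Mrpl27 and Mrpl9 rose, and Mrpl22 and Mrps5 had log2 changes of 1.25 and 0.95 that did not pass.

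On leaders most members had next to no reads. The number of members at the lowest value of 1 read was 33 and 31 of 46 in the controls and 29 and 26 in the knockdown libraries, and 26 members were at 1 read in all 4. Of all 4878 genes, 859 were at 1 read in all 4 libraries. The 26 members include 4 of the 5 with the core (Mrpl35, Mrps18a, Mrps24, Mrps27), whose core lies within 36 bases of the annotated start. On coding reads 15 of the 26 rose, with a median of 1.26, as did 15.9% of all tested genes at 1 leader read in every library (median 0.05). Of the other 19 tested members 8 rose, with a median of 1.15, as did 9.36% of the other tested genes (median -0.20).

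Without a filter limma called 10 of all 46 members higher on leader reads, against 25.6% of all genes, and 0 lower, against 1.27%. The median log2 change was 0.36 against 0.67. The 26 members at 1 read in all 4 libraries share 1 value, set by the library constants alone. The members' median of 0.36 is that value and measures no change in reads. The 11 members with a mean of at least 10 normalized leader reads gave 7 rises and 0 falls in leader reads by limma (9 higher and 0 lower at an unadjusted p under 0.05), where 44% of all 2101 tested leaders rose and 2.81% fell. Both knockdown values exceeded both controls in 9 of the 11, against 67.4% of tested leaders, and were below both in 0, against 7.19%. Of the 7, 5 (Mrpl11, Mrpl37, Mrpl2, Mrpl30, Mrpl24) had a control mean under 10 and passed the filter only through their knockdown values, so the count of 7 is a description. DESeq2 called 7 of the 11 higher and edgeR 5, where 34.5% and 34.3% of tested leaders rose. Both called 0 lower, where 0.952% and 1% fell. Without control replicate 1 limma called 1 higher and without control replicate 2 it called 0, where 8.52% and 16.1% of tested leaders rose and 0.476% and 0.286% fell. With quantile normalization, where the median of all tested leaders was 0.11 in place of 1.09, 3 members rose and Mrpl48 fell, against 21.5% and 17.8% of tested leaders.

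Mrpl30 had the smallest adjusted p on the leader. It had 10.03 and 8.64 normalized leader reads in the controls and 36.6 and 60.7 in the knockdown libraries, and changed by 2.22 ± 0.53 on the log2 scale (SE, limma adjusted p = 0.000243). Its coding reads were 18.6 and 22.5 against 29.5 and 30.3, so the leader was below the coding region in both controls and above it in both knockdown libraries. Mrpl24, whose coding values overlapped between groups, had 6.45 and 12.1 leader reads in the controls and 27.5 and 36.7 in the knockdown libraries (log2 1.73, limma adjusted p = 0.0061). Mrpl2 had 3.58 and 2.59 against 11.2 and 30.3 (log2 2.27, limma adjusted p = 0.00426). Mrpl11 had 2.87 and 3.46 against 13.2 and 28.7 (log2 2.31, limma adjusted p = 0.00306). Mrpl37 had 5.73 and 1.73 against 11.2 and 35.1 (log2 2.29, limma adjusted p = 0.00295). In these 5 genes both knockdown libraries were above both controls, with replicate 2 the higher one.

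Mrpl18 and Mrps21 carried the most leader reads of their subunits. Both passed the limma threshold in both regions, but the leader calls were lost with TMM factors (adjusted p = 0.0599 and 0.0794), with edgeR (0.0674 and 0.0534) and with quantile normalization (log2 0.31 and 0.30), and DESeq2 kept them (0.0194 and 0.049). Mrpl18 (chromosome 17, 12911345 to 12917787) had 40.1 and 51.9 normalized leader reads in the controls and 103 and 137 in the knockdown libraries (log2 1.36, limma adjusted p = 0.0112). Its leader held more reads than its coding sequence in every library. The start of Mrpl18 overlaps Tcp1, which runs the other way, over 1459 bases of annotated span, and no strand setting of the counting is given in the sources used here, so reads of the pair may be mixed. Mrps21 had 16.5 and 28.5 leader reads against 31.5 and 95.8 (log2 1.30, limma adjusted p = 0.0242), and without knockdown replicate 2 its log2 change was 0.52. It too had more leader than coding reads in the controls and in knockdown replicate 2, and fewer in knockdown replicate 1 (31 against 33 reads). In 3 members of 46 (Mrpl18, Mrpl55 and Mrps23) the leader held more reads than the coding sequence in all 4 libraries, as it did in 251 of all 4878 genes. The start of Mrps23 overlaps Cuedc1 on the same strand over 35 bases of annotated span. The starts of Mrpl37 and Mrpl2 overlap Cyb5rl over 37 and Klc4 over 18 bases on the other strand.

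The 4 tested leaders that did not pass were those of Mrpl3, Mrps23, Mrpl55 and Mrpl48. Mrpl3 and Mrps23 had log2 changes of 1.22 and 1.14. Mrpl55 had 16.5 and 17.3 normalized leader reads in the controls and 13.2 and 28.7 in the knockdown libraries (log2 0.20, limma adjusted p = 0.779). Mrpl48, a protein of the central protuberance, had 15.8 and 19.0 against 9.15 and 20.8 (log2 -0.30, limma adjusted p = 0.679). The start of Mrpl48 overlaps Rab6a on the other strand over 727 bases of annotated span.

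The ratio of leader to coding reads passed the test in no member. Of 10 members with both regions past the filter, limma called 0 higher and 0 lower (1 and 0 at an unadjusted p under 0.05; no count test was run on the ratio). In all 1907 genes tested 19.4% rose and 0.0524% fell. Only Mrpl48 of the 10 had a control mean of at least 10 in both regions. The others passed the filter in the leader, the coding sequence or both only through their knockdown values, so the members' ratios are a description. The members' median log2 change of the ratio was 0.30 against 1.23 for all tested genes, and 1.53 against 1.29 over the 3 members left at a filter of 20. Mrpl30 and Mrpl24 had the highest values, 1.70 and 1.53 (limma adjusted p = 0.105 and 0.145), and both knockdown libraries were above both controls in these and in Mrpl2 (0.95), that is in 3 of 10 members against 63.9% of all tested genes. In Mrpl48 (-0.78) and Mrps23 (-0.50) both lay below both controls, in 2 of 10 members against 1.52%. Mrpl37, Mrpl11, Mrpl3, Mrps21 and Mrpl18 lay at 0.43, 0.35, 0.25, -0.35 and -0.47. Without knockdown replicate 1 limma called 5 of the 10 higher (Mrpl11, Mrpl2, Mrpl24, Mrpl30, Mrpl37) and 0 lower, where 61.4% of tested genes rose and 0.262% fell.

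Summed over genes, leaders took 16.7% (95% Wilson interval 14.9 to 18.8) and 22.8% (20.3 to 25.4) of the members' reads in the controls. In the knockdown libraries they took 15.4% (14.04 to 16.9) and 30.01% (27.6 to 32.6), so the groups overlapped. Over all genes of the table the leader share was 11.6% and 13.7% in the controls and 19.95% and 32.4% in the knockdown libraries, without overlap. The 5 members with the most leader reads (Mrpl18, Mrps21, Mrpl30, Mrpl24, Mrpl55), picked after their values were seen, held 53.6% to 58.0% of the members' leader reads in each library. In the other 41 members the leader share was 9.22% and 12.3% in the controls and 7.96% and 16.2% in the knockdown libraries. Members at 1 leader read, 33 and 31 in the controls and 29 and 26 in the knockdown libraries, add that read to these shares. It may stand for none.

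**Figure D3:**
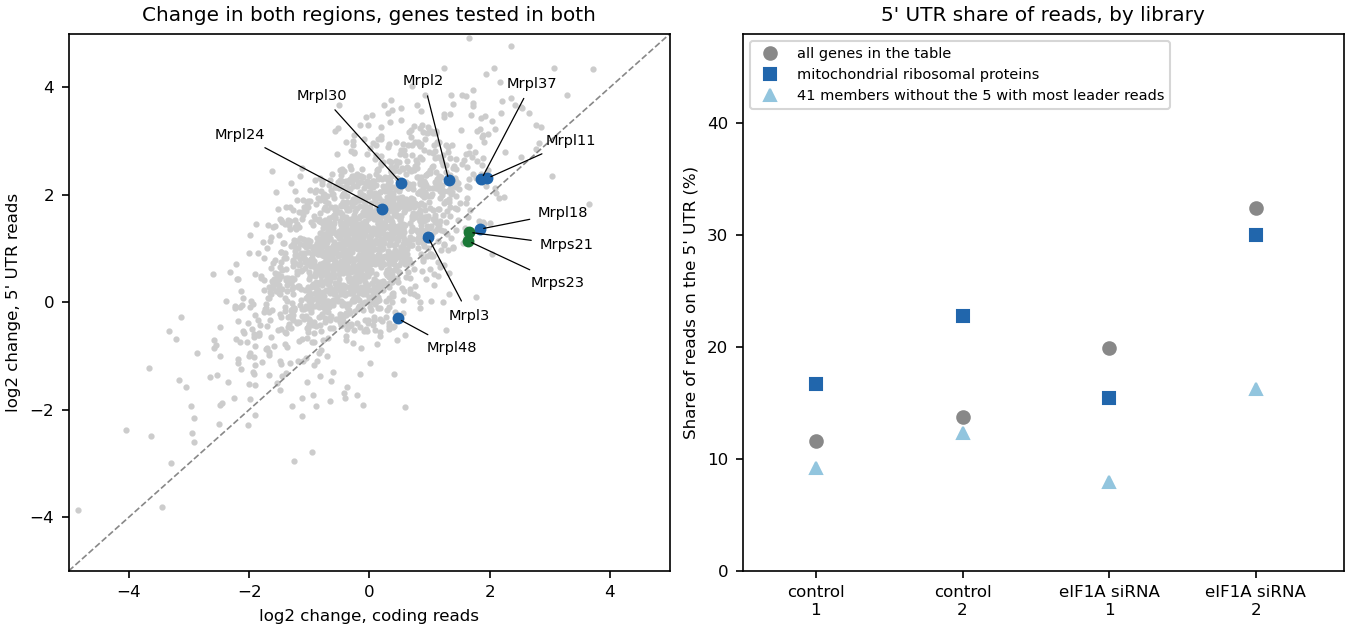
Left, log2 change in 5′ UTR reads against log2 change in coding reads for genes tested on both (grey), with the 10 such members named (blue, large subunit; green, small subunit) and a dashed line where both changes are equal. Right, share of reads on the 5′ UTR in each library for all genes, for the 46 members and for the 41 members without the 5 with most leader reads; the members' share was 16.7% and 22.8% in the controls and 15.4% and 30.01% in the knockdown libraries.

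Other genes of mitochondrial translation were few in the table. Of 8 mitochondrial ribosomal proteins and partners with other names 5 were tested and 2 rose. Gadd45gip1, a large subunit protein also known as CRIF1, had 25.1 and 18.2 normalized coding reads in the controls and 109 and 57.5 in the knockdown libraries (log2 1.84, limma adjusted p = 0.00212), and Chchd1, a small subunit protein, rose by 1.34. Aurkaip1, Ict1 and Oxa1l, the insertase to which the mitochondrial ribosome docks, had log2 changes of 0.87, 0.95 and 0.75 that did not pass. Both listed translation factors of 13 rose: Tufm, the elongation factor that brings tRNAs, went from 37.98 and 19.9 to 69.2 and 62.2 (log2 1.22, limma adjusted p = 0.0187), and Gfm1, the translocase, from 36.5 and 32.8 to 81.4 and 92.6 (log2 1.30, limma adjusted p = 0.00619).

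Of 17 mitochondrial tRNA synthetases 5 were tested, and Aars2, for alanine, rose (log2 1.69, limma adjusted p = 0.0355) while Cars2, Hars2, Iars2 and Tars2 lay between 0.43 and 1.05 and did not pass. Of 34 factors of ribosome assembly and mitochondrial RNA 8 were tested, and 4 rose. Slirp and Lrpprc, which together stabilise mitochondrial mRNAs, changed by 2.07 and 1.05 on the log2 scale, Fastkd2 by 1.81 and the GTPase Noa1 by 1.48. Aars2 and Fastkd2 had control means of 5.61 and 5.39 normalized coding reads and passed the filter only through their knockdown values. Slirp had 12.2 and 10.4 against 54.9 and 46.3 normalized coding reads. Dhx30, Ddx28, Tfam and Taco1 had log2 changes of 0.12, 0.26, 0.18 and 0.51 and did not pass. None of the genes on these lists fell, where 10.6% of all tested genes rose and 18.7% fell.

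**Figure D4:**
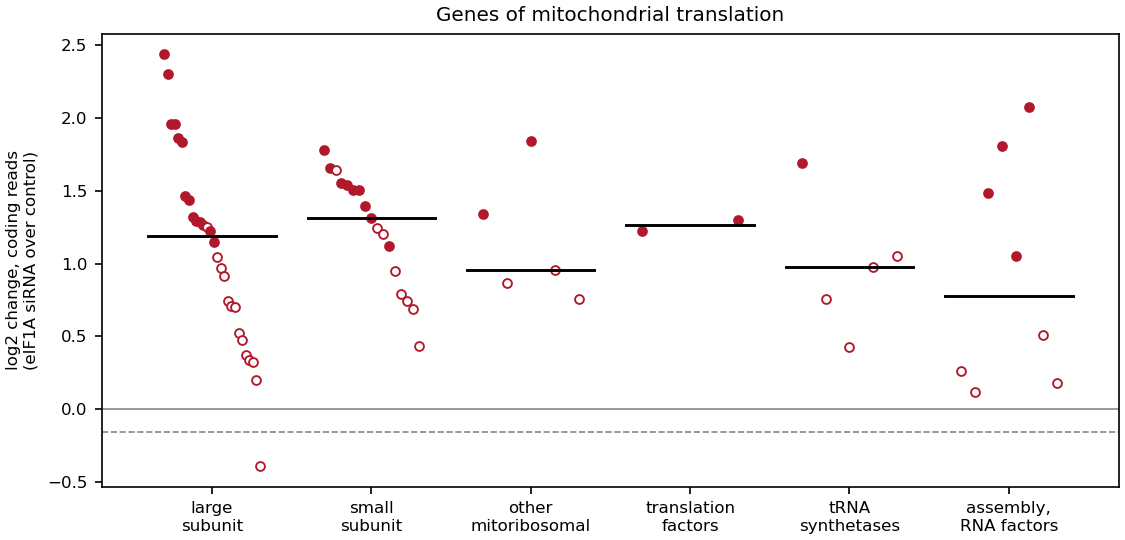
Log2 changes of coding reads (knockdown over control) for the tested genes of mitochondrial translation, filled where past the limma threshold, with black lines at group medians (1.19 for the large subunit, 1.31 for the small subunit), a solid line at 0 and a dashed line at -0.16, the median of all tested genes. The horizontal spread within a group has no meaning.

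Beside the members, 2 related gene groups gave other counts. All 19 tested cytosolic ribosomal proteins of 20 listed rose, with log2 changes from 1.16 to 2.52 and a median of 1.90. Nuclear genes picked by symbol for the respiratory chain and ATP synthase, which may include assembly factors, rose in 17 of 49 cases and fell in 0. Their median was 0.63. Among all tested genes 10.6% rose and 18.7% fell, with a median of -0.16. These differences between groups were not tested.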

How the data were processed

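The deposited values are a normalized signal, the authors' normalized read number per gene for the coding sequence and the 5′ UTR of each library, per the file headers. The submitters' processing notes name build mm10 and, among tools, HTSeq, DESeq2, TopHat2, Bowtie and cutadapt; versions, roles and filters are not given in the sources used here. In each library 100% of values were whole multiples of 1 read (within 0.001 reads), so whole reads were recovered by division.

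Values were tested as log2 (value + 1) with limma 3.58.1 in R 4.3.3 (trend, Benjamini-Hochberg, threshold 0.05) on the whole table, with genes of mean at least 10, without a replicate block. This scale understates changes of genes with few reads. For the leader and the ratio every gene took the trend's variance. edgeR 4.0.16 and DESeq2 1.42.0, with size factors from coding reads, called 1725 and 982 genes on recovered coding reads. The code was tested on simulated reads with the same spread between replicates set for every gene, so that test does not measure error rates at the spread of these libraries.

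The members, lists and tests were chosen with earlier results of these data known. Values in every library are given for the 8 members of each subunit with the smallest adjusted p, the 3 lowest changes, called leaders and members with the core; other members are summarised or added as examples of a role. Levels per coding length and protein sequences were not used here. Reads shared with pseudogenes (Mrpl27-ps and Mrpl48-ps are annotated) are uncertain, as is a member whose span overlaps another gene (16 of 46).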

Additional observations from a re-analysis of the deposited data

How the results depend on the processing

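Of 45 tested members, 39 kept the sign of their coding change under every alternative that tested them, the 23 that rose among them, and 0 fell under any. The count of members that rose on coding reads was 20 to 35 with other pseudocounts, filters, scalings and tests (35 with edgeR), and 0 to 33 with 1 library left out. With the replicate number as a replicate block it was 31, for which no share over all genes is given. Same-numbered libraries share only a number (deviations correlated at 0.261 over 4619 genes). TMM factors moved the median of all genes from -0.16 to 0.0044 and gave 32. The small subunit median was 1.08 with a pseudocount of 5, 1.47 with TMM factors, 1.59 with edgeR and 1.57 with DESeq2. On leaders 4 of 4 members rose at a filter of 20, 3 rose and 1 fell with quantile normalization, and 0 to 8 rose with a library left out. On the ratio 2 rose with the replicate block (Mrpl24, Mrpl30), and both passed the filter only through their knockdown leader reads. Without a filter 1 fell (Mrpl35), but its leader was at 1 read in all 4 libraries, so its fall only mirrors its coding rise. For these 2 settings no share over all genes is given. With a library left out the members' median change of the ratio ran from -0.74 to 1.21, against 0.76 to 1.76 for all tested genes. The tests on whole reads were not run on the ratio.

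Signs that turned were of members that did not pass, and the cause was not tested. With 1 library left out, the coding change ran from -0.0518 to 1.48 for Mrpl1, from -0.212 to 0.617 for Mrpl24, from -0.0006 to 0.753 for Mrpl28, from -0.157 to 0.832 for Mrpl40, from -0.0104 to 0.879 for Mrps24 and from -0.268 to 1.65 for Mrps31. The leader change ran from -0.851 to 0.248 for Mrpl48 and from -0.330 to 0.734 for Mrpl55, which was -0.75 with quantile normalization. The change of the ratio ran from -1.26 to 1.95 for Mrpl11, -1.38 to 0.436 for Mrpl18, -0.742 to 1.25 for Mrpl3, -0.945 to 1.80 for Mrpl37 and -1.42 to 0.721 for Mrps21. Quantile normalization gave ratio changes of -0.836 for Mrpl11, -0.491 for Mrpl2, -0.807 for Mrpl3 and -0.820 for Mrpl37. Members had a median of 15 to 38.5 coding reads per library, which limits single genes.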
